A study of Arabidopsis thaliana with 9 samples.

Results

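Aminolevulinate synthesis was followed in RNA sequencing libraries of Arabidopsis thaliana seedlings through 6 genes, chosen by their AGI identifiers from the 26984 genes with a value: HEMA1, HEMA2, GSA1, GSA2, FLU and HEMB1. All 6 were present in every library. The study compared 3 genotypes with 3 libraries each: the cop1-6 mutant, the cor27cor28 mutant and wild type (Col-0). All seedlings were 7 days old, were grown in short days and were taken at ZT20, a time counted in hours from lights-on, and the tissue is labelled as seedling. The gene affected in cop1-6 is COP1, a ubiquitin ligase gene whose product restrains light responses in darkness, and cor27cor28 combines mutations in COR27 and COR28, a related gene pair under control of cold and the circadian clock. The labels do not give the kind of lesion in either mutant, the hours of light or whether the libraries of a genotype came from separate batches of plants, so the p-values take in the spread among these libraries alone.

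All chlorophyll, haem and phytochrome chromophore of a plant derive from 5-aminolevulinic acid, which is made in plastids from glutamate bound to its transfer RNA. Glutamyl-tRNA reductase, encoded by HEMA genes, makes glutamate-1-semialdehyde, and the aminotransferase encoded by GSA genes turns it into aminolevulinic acid. The dehydratase encoded by HEMB1 then joins aminolevulinic acid molecules into porphobilinogen. FLU is a membrane protein that binds and restrains glutamyl-tRNA reductase in the dark, which keeps the phototoxic intermediate protochlorophyllide from building up at night. HEMA1 is known as the light-induced reductase gene of green tissue and HEMA2 as a gene that is also used in roots.

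Values are FPKM, fragment counts scaled by transcript length and by the mapped fragments of the library, so that levels can be compared between genes. FPKM sums of a library were 515929 to 532655 in cop1-6, 548055 to 562621 in cor27cor28 and 584878 to 612462 in wild type. The sources used here do not state read numbers, and the spacing of low values put the relative depths between 0.999 and 1.06. One library stood apart: cop1-6 replicate 3 had 289 genes at 2 times or more the value of both other cop1-6 libraries, where the remaining libraries had 20 to 69 such genes. COR27 had 48.0, 50.1 and 47.9 FPKM in the cor27cor28 libraries, against 12.5, 17.4 and 16.2 FPKM in wild type. COR28 had 2.49, 1.48 and 2.71 FPKM in cor27cor28, which overlapped the 2.73, 1.92 and 3.08 FPKM of wild type. Transcript levels therefore do not check the cor27cor28 label, and COP1 was not analysed here. As for the tissue, the green tissue markers RBCS1A, RCA, GAPA and FBPase were present in all libraries, and of 10 root markers 4 to 5 were at 0 in cop1-6, 1 to 2 in cor27cor28 and 0 to 1 in wild type. The sum of the root markers, nearly all of it from PYK10, was 835 to 910 FPKM in cop1-6, 1523 to 1681 FPKM in cor27cor28 and 1235 to 1466 FPKM in wild type. In these bulk samples fewer cells of a type and less RNA per cell cannot be told apart.

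HEMA1 (AT1G58290, minus strand of chromosome 1, from 21623700 to 21626402 in TAIR10.1, 3 exons) was the most abundant of the 6 transcripts in every library. It had 335, 309 and 298 FPKM in cop1-6, 209, 201 and 203 FPKM in cor27cor28, and 256, 267 and 263 FPKM in wild type. The 3 genotypes did not overlap: every cop1-6 library lay above, and every cor27cor28 library below, all wild-type libraries. The mean in cop1-6 was 314 ± 19.2 FPKM against 262 ± 5.29 FPKM in wild type (SD, n = 3 each), a log2 fold change of 0.26 ± 0.07 (SE, adjusted p = 0.00761, limma across 17075 genes). All such values were computed from log2(FPKM + 1), and a gene is named as called, higher or lower, where the Benjamini-Hochberg adjusted p was under 0.05. In cor27cor28 the mean was 204 ± 4.46 FPKM (SD, n = 3), a log2 fold change of −0.36 ± 0.07 against wild type (SE, adjusted p = 0.00395, limma). Between the mutants the log2 fold change of cop1-6 against cor27cor28 was 0.62 ± 0.07 (SE, adjusted p = 1.79e-05, limma), and the mean in cop1-6 was 1.54 times as high. These comparisons share libraries: both mutants were set against the same wild type.

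The shift of all genes has to be read beside these values. Over the 17075 tested genes the median log2 fold change was −0.21 for cop1-6 and 0.10 for cor27cor28, each relative to wild type, and −0.36 for cop1-6 relative to cor27cor28. Relative to that median, the HEMA1 value was 0.47 in cop1-6 and −0.46 in cor27cor28, each relative to wild type on the log2 scale, and 0.98 in cop1-6 relative to cor27cor28. Its log2 fold change exceeded that of 86.4% of tested genes in cop1-6 against wild type, of 7.21% in cor27cor28 relative to wild type and of 95.1% between the mutants. HEMA1 was called in the same direction in all 17 alternative settings of each comparison, with log2 fold changes of 0.21 to 0.52, −0.49 to −0.26 and 0.57 to 1.01. Without cop1-6 replicate 3 its log2 fold change against wild type was 0.29 (adjusted p = 0.00743, limma).

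**Figure D1:**
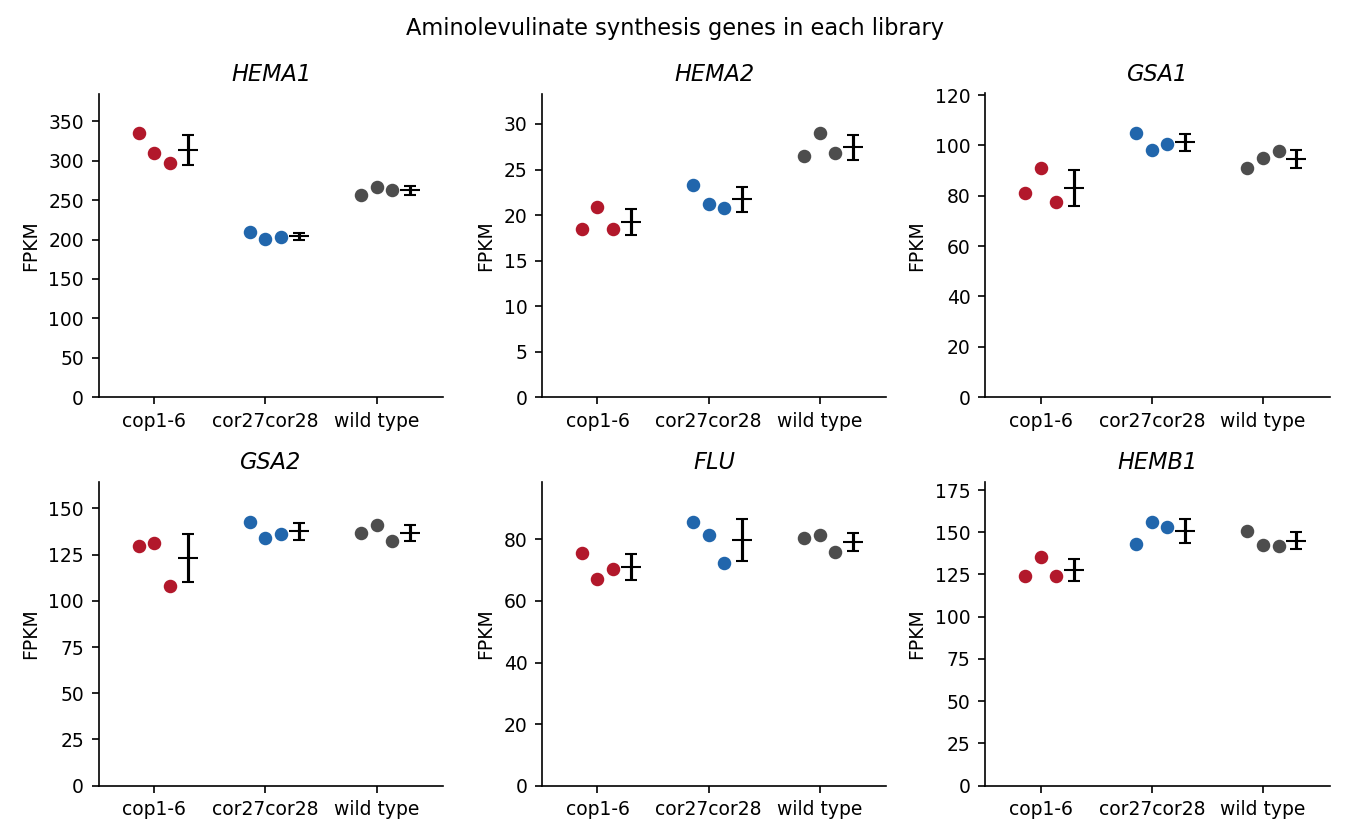
FPKM of the 6 genes in each library (points) for cop1-6, cor27cor28 and wild type, with the mean and SD of 3 libraries beside them, on axes that start at 0. HEMA1 separates all 3 genotypes, with 298 to 335 FPKM in cop1-6, 201 to 209 in cor27cor28 and 256 to 267 in wild type, and HEMA2 is lower in both mutants than in wild type.

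HEMA2 (AT1G09940, chromosome 1, 3236908 to 3239554 on the minus strand, 3 exons) was the least abundant of the 6. It had 18.4, 20.9 and 18.5 FPKM in cop1-6, 23.3, 21.2 and 20.8 FPKM in cor27cor28, and 26.5, 29.0 and 26.8 FPKM in wild type. All mutant libraries were below all wild-type libraries, while the mutants overlapped each other. The log2 fold change was −0.49 ± 0.09 in cop1-6 (SE, adjusted p = 0.000492, limma) and −0.32 ± 0.09 in cor27cor28 (SE, adjusted p = 0.0195, limma), each against wild type. Between the mutants it was −0.17 ± 0.09 (SE), which did not pass (adjusted p = 0.0998, limma) except without cop1-6 replicate 2 (−0.22, adjusted p = 0.0469). In cop1-6 the call was lost with median-of-ratios scaling (log2 fold change −0.24, adjusted p = 0.0741) and kept without cop1-6 replicate 3 (−0.46, adjusted p = 0.0021). In cor27cor28 it was lost with equal totals (−0.23, adjusted p = 0.0686) and without cor27cor28 replicate 2 or 3 or wild-type replicate 2 (adjusted p = 0.0743, 0.081 and 0.0641).

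Root markers moved with HEMA2 in cop1-6. PYK10, a root beta-glucosidase gene, was called lower in cop1-6 than in wild type (log2 fold change −0.57, adjusted p = 0.000176, limma). Of 10 markers, 6 reached the minimum for testing, CASP1 to CASP5 of the Casparian strip only through cor27cor28 and wild-type libraries, so no count is read from them in cop1-6. CASP1 had 0.884, 0.07 and 0.378 FPKM in cop1-6, against 15.4, 11.7 and 11.2 FPKM in wild type, and CASP5 was listed at 0 in all 3 cop1-6 libraries. In cor27cor28, 3 of the 6 were called lower than in wild type and 1 higher, beside 7.29% of all tested genes called lower and 14.6% higher. CASP2 had a log2 fold change of −0.68, and PYK10 of 0.28, which was not called with median-of-ratios scaling. The part of root tissue in the HEMA2 result was not tested.

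The ratio of both reductase genes within a library does not depend on how the library was scaled. HEMA1 over HEMA2 was 18.2, 14.8 and 16.1 in cop1-6, 8.98, 9.47 and 9.79 in cor27cor28, and 9.69, 9.20 and 9.82 in wild type. The cop1-6 libraries stood above all others, and cor27cor28 overlapped wild type. The ratio in cop1-6 was 1.70 times that in wild type and 1.73 times that in cor27cor28, with a two-sided exact permutation p of 0.1 in both, the smallest that 3 against 3 libraries allow (adjusted p = 0.15 over 9 tests). For cor27cor28 against wild type the ratio was 0.983 times as high (exact permutation p = 0.6, adjusted p = 0.675). In FPKM, the mean of HEMA1 differed from wild type by 19.7% and that of HEMA2 by −29.8% in cop1-6, and both differed by similar amounts in cor27cor28, −22.1% and −20.7%.

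The coding sequences of HEMA1 and HEMA2 are 80.0% identical. The longest run of bases that their transcripts share without a mismatch is given here because it limits how short a sequenced fragment can be and still be assigned to one of them. It is 49 bases long, from base 722 of the HEMA1 and base 636 of the HEMA2 transcript in RefSeq's TAIR10.1, both on chromosome 1:

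HEMA1 and HEMA2 shared run: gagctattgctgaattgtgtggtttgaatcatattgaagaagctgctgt

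No window of 50 bases was shared between the transcripts. HEMA3 (AT2G31250), a related gene added after the lists were made, had 0.099 to 0.354 FPKM in cop1-6, 0.36 to 0.616 FPKM in cor27cor28 and 0.295 to 0.685 FPKM in wild type, and was below the minimum for testing.

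The promoter windows of the reductase genes are shown because these 2 genes were the members called in both mutants against wild type. Each window runs from 250 bases before to 50 bases after the annotated gene start in TAIR10.1, and capitals mark exact matches on either strand to the motifs CACGTG (G-box), ACGT (its core, which overlaps it), AAATATCT (evening element), AAAAATCT (binding site of the clock factor CCA1) and GATAAG (I-box). The HEMA1 window is chr1:21626353-21626652, minus strand, and the HEMA2 window is chr1:3239505-3239804, minus strand, both from RefSeq and written 5′ to 3′ on the gene's strand:

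HEMA1: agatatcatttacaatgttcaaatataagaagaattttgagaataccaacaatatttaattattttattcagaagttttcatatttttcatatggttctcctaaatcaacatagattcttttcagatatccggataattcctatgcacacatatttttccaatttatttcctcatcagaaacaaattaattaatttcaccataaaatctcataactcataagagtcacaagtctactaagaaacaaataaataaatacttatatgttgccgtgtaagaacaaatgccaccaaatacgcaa

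HEMA2: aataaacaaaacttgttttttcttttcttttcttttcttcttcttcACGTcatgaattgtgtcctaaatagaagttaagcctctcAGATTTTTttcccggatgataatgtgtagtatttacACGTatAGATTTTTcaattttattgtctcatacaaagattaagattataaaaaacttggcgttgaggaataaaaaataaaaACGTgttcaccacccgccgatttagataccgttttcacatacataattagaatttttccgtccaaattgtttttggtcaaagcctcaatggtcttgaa

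The HEMA1 window held none of these letters. The HEMA2 window held 3 matches to ACGT, with first bases at −204, −129 and −48 relative to the start, and 2 to AAAAATCT on the opposite strand, at −165 and −123. Of 27443 promoter windows of the same length, 49.9% held ACGT, 7.88% AAAAATCT, 7.68% CACGTG, 5.65% AAATATCT and 14.7% GATAAG. Among the other members, GSA1 and GSA2 held 1 ACGT each, FLU held 1 AAAAATCT and HEMB1 held no match. A match is a run of letters and not a site shown to be bound.

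Neither aminotransferase gene was called in either mutant against wild type. GSA1 (AT5G63570, chromosome 5, 25451800 to 25453845, plus strand) had 80.9, 90.9 and 77.5 FPKM in cop1-6, 105, 98.3 and 100.5 FPKM in cor27cor28, and 91.1, 94.9 and 97.9 FPKM in wild type. The cop1-6 libraries lay below the wild-type libraries, replicate 2 only just, and the cor27cor28 libraries lay above them. Neither comparison passed: the log2 fold change was −0.19 ± 0.08 in cop1-6 (SE, adjusted p = 0.0551, limma, and 0.0126 without cop1-6 replicate 2) and 0.10 ± 0.08 in cor27cor28 (SE, adjusted p = 0.377, limma). Between the mutants GSA1 was called lower in cop1-6 (−0.28 ± 0.08 SE, adjusted p = 0.00619, limma), also without cop1-6 replicate 3 (−0.24, adjusted p = 0.0264). That call was lost with equal totals (−0.19, adjusted p = 0.0549), and under median-of-ratios scaling the direction turned (0.11, adjusted p = 0.402).

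GSA2 (AT3G48730, chromosome 3, 18049571 to 18051778, plus strand) had 129.8, 131 and 108 FPKM in cop1-6, 143, 134 and 136 FPKM in cor27cor28, and 137, 141 and 132 FPKM in wild type. The lowest value was that of cop1-6 replicate 3, and the cor27cor28 libraries overlapped wild type. No comparison was called: the log2 fold changes were −0.16 ± 0.08 in cop1-6 and 0.0084 ± 0.08 in cor27cor28, each against wild type, and −0.17 ± 0.08 in cop1-6 against cor27cor28 (SE, adjusted p = 0.131, 0.952 and 0.091, limma). Without cop1-6 replicate 2, GSA2 was called lower in cop1-6 than in cor27cor28 (−0.21, adjusted p = 0.0481). GSA1 over GSA2 was 0.623, 0.692 and 0.717 in cop1-6, 0.734, 0.733 and 0.739 in cor27cor28, and 0.666, 0.672 and 0.74 in wild type. The cop1-6 libraries lay below the cor27cor28 libraries (exact permutation p = 0.1, adjusted p = 0.15), and both mutants overlapped wild type. The coding sequences of GSA1 and GSA2 are 72.9% identical, and the longest identical run between their transcripts is 38 bases.

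FLU (AT3G14110, chromosome 3, 4676118 to 4677689, minus strand), the gene of the reductase inhibitor, was the second lowest of the 6. It had 75.4, 67.1 and 70.5 FPKM in cop1-6, 85.8, 81.5 and 72.3 FPKM in cor27cor28, and 80.5, 81.3 and 75.9 FPKM in wild type. The cop1-6 libraries lay just below the wild-type libraries, and the cor27cor28 libraries overlapped both. No comparison was called, with log2 fold changes of −0.16 ± 0.08 in cop1-6 and 0.0077 ± 0.08 in cor27cor28, each against wild type, and −0.17 ± 0.08 in cop1-6 against cor27cor28 (SE, adjusted p = 0.123, 0.955 and 0.0865, limma). Without cor27cor28 replicate 3, FLU was called lower in cop1-6 than in cor27cor28 (−0.23, adjusted p = 0.0356). FLU overlaps the gene AT3G14100 on the other strand by 45 bases, and without stated strand use fragments of that stretch cannot be assigned. AT3G14100 had 29.9, 25.9 and 27.8 FPKM in cop1-6 and 50.5, 52.9 and 47.4 FPKM in cor27cor28. In wild type it had 44.8, 39.7 and 43.3 FPKM, and its part in the FLU values was not tested.

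HEMA1 over FLU set the reductase gene against its inhibitor gene within each library. The ratio was 4.44, 4.61 and 4.22 in cop1-6, 2.44, 2.46 and 2.81 in cor27cor28, and 3.19, 3.28 and 3.47 in wild type. The 3 genotypes did not overlap in this ratio either. Against wild type it was 1.34 times as high in cop1-6 and 0.775 times as high in cor27cor28, and in cop1-6 it was 1.72 times that in cor27cor28 (exact permutation p = 0.1 in each, the smallest possible, adjusted p = 0.15). Without cop1-6 replicate 3 the log2 difference against wild type was 0.45, compared with 0.42 with it.

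**Figure D2:**
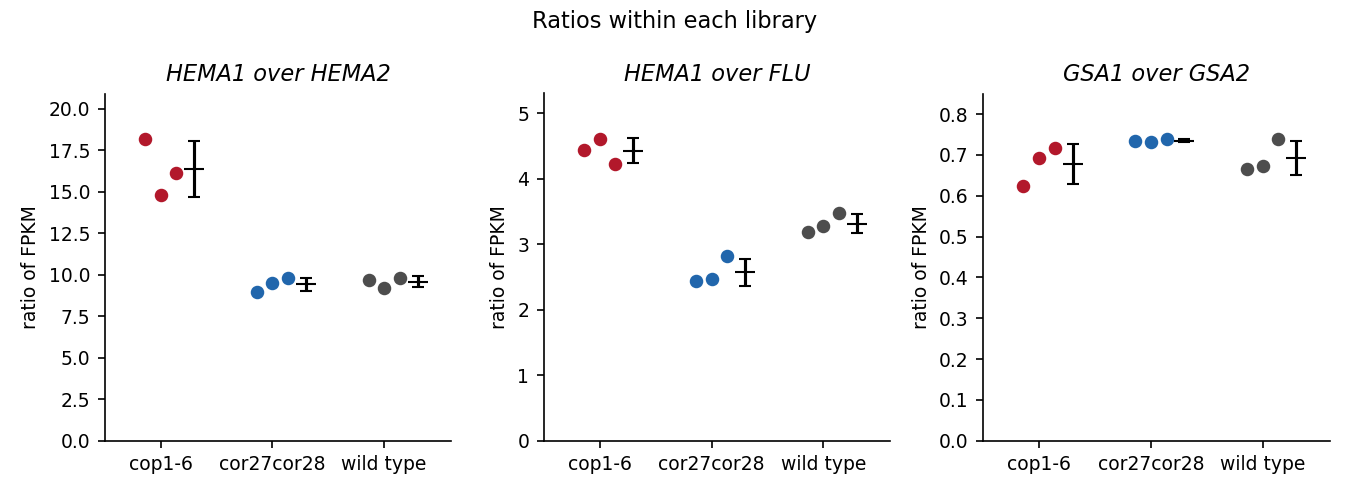
FPKM ratios within each library (points) for cop1-6, cor27cor28 and wild type, with the mean and SD of 3 libraries, on axes that start at 0. HEMA1 over HEMA2 is 14.8 to 18.2 in cop1-6 and 8.98 to 9.82 in all other libraries, while HEMA1 over FLU separates all 3 genotypes and GSA1 over GSA2 stays between 0.623 and 0.74.

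HEMB1 (AT1G69740, chromosome 1, 26231620 to 26235043, plus strand, 13 exons) stood at the step that consumes aminolevulinic acid. It had 124, 135 and 124 FPKM in cop1-6, 143, 156 and 153 FPKM in cor27cor28, and 151, 143 and 142 FPKM in wild type. All cop1-6 libraries were below all other libraries, and cor27cor28 overlapped wild type. It was called lower in cop1-6 than in wild type (log2 fold change −0.18 ± 0.07 SE, adjusted p = 0.0477, limma) and than in cor27cor28 (−0.24 ± 0.07 SE, adjusted p = 0.0111, limma), and was not called in cor27cor28 against wild type (0.05 ± 0.07 SE, adjusted p = 0.601, limma). The call in cop1-6 against wild type held in 5 of 17 alternative settings and was lost, among others, without cop1-6 replicate 1 or 3, without cor27cor28 replicate 2 or 3 and without any 1 of the wild-type libraries (adjusted p = 0.128, 0.131, 0.0613, 0.0676, 0.158, 0.0606 and 0.0718). Its direction turned under median-of-ratios scaling (0.079) and equal totals (0.013). The call between the mutants was kept without cop1-6 replicate 3 (−0.21, adjusted p = 0.0369). It was lost with equal totals (−0.14, adjusted p = 0.112), and its direction turned under median-of-ratios scaling (0.16). HEMB2, the paralogue of HEMB1, was listed at 0 in 8 of 9 libraries.

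Counts over the 6 genes are given beside those of all tested genes. In cop1-6 against wild type 1 was called higher and 2 lower, while 49.5% of all tested genes were called, 10.9% higher and 38.6% lower. In cor27cor28 against wild type 0 were called higher, also at an unadjusted p under 0.05, and 2 lower, while 21.9% of all tested genes were called, 14.6% higher and 7.29% lower. That share of all genes was 10.8% without cor27cor28 replicate 2 and 12.5% without its replicate 3. Between the mutants 1 was called higher in cop1-6 and 2 lower, while 65.8% of all tested genes were called, 9.19% higher and 56.6% lower. The balance of all calls moved with the scaling: in cop1-6 against wild type 1865 genes were higher and 6583 lower with the deposited values, 3825 and 3494 after scaling by median of ratios, and 3068 and 4100 when totals were made equal. In cor27cor28 against wild type these counts were 2493 and 1245, then 1260 and 2125, then 4246 and 817. Between the mutants 1569 were higher in cop1-6 and 9666 lower with the deposited values, 3300 and 2397 after scaling by median of ratios, and 1903 and 7685 when totals were made equal.

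In all 6 genes the cop1-6 and the wild-type libraries did not overlap, which was so for 57.2% of all tested genes. Between cor27cor28 and wild type 3 did not overlap, GSA1 and both HEMA genes, where the share of all tested genes was 41.4%. Between the mutants 4 did not overlap, HEMA1, GSA1, GSA2 and HEMB1, where the share was 69.7%. For GSA1, GSA2, FLU and HEMB1 the log2 fold changes in cop1-6, from −0.19 to −0.16 against wild type, lay close to the median of all genes, −0.21.

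**Figure D3:**
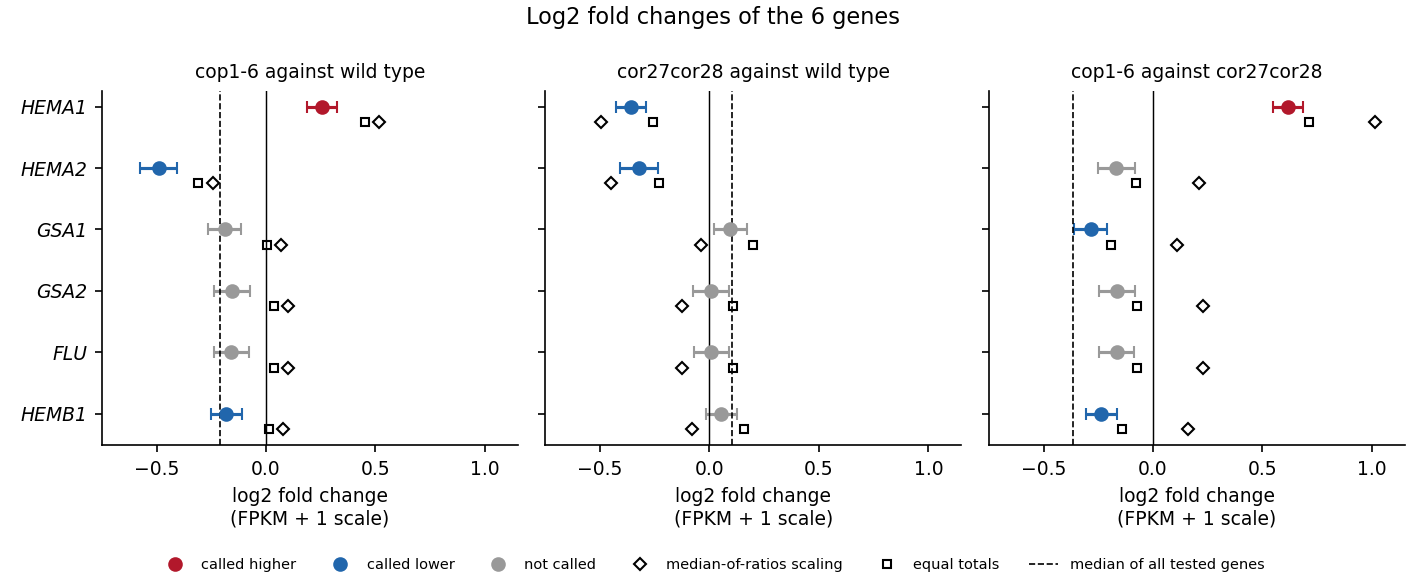
Log2 fold changes on the log2(FPKM + 1) scale (circles, with SE) of the 6 genes in the 3 comparisons, with the values under median-of-ratios scaling (diamonds) and equal totals (squares) and the median of all tested genes (dashed line). HEMA1 keeps its sign under both scalings in every comparison, from 0.26 to 0.52 in cop1-6 against wild type, whereas GSA1, GSA2, FLU and HEMB1 change sign in cop1-6 against wild type.

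A list drawn up for the supply and control of glutamyl-tRNA reductase held 7 genes. Of these, BCM1 and BCM2 are genes of chlorophyll homeostasis, and a role in control of the reductase is not shown here. In cop1-6 4 of the 7 were called higher than in wild type and 1 lower, beside 10.9% of all tested genes called higher and 38.6% lower. The median log2 fold change of the 7 was 0.22, beside −0.21 for all tested genes. Under both other scalings 5 were higher and 0 lower, beside 3825 higher and 3494 lower of 17034 genes with median of ratios and 3068 higher and 4100 lower of 18047 with equal totals. BCM2, a thylakoid protein gene of chlorophyll homeostasis, had 82.2, 76.2 and 78.7 FPKM in cop1-6, against 38.9, 31.7 and 33.0 FPKM in wild type, with no overlap (mean 2.29 times as high, adjusted p = 1.99e-06, limma). CLPS1 and CLPC1, an adaptor and a chaperone of the Clp protease that degrades the reductase, were higher too (log2 fold changes 0.48 and 0.25). GBP, whose product binds the reductase at the membrane, was higher by 0.22 on the log2 scale. The gene called lower, cpSRP43, encodes a chaperone of the reductase (−0.30) and was not called under either scaling. In cor27cor28 the one gene called was OVA3, which encodes glutamyl-tRNA synthetase, at 51.5, 58.7 and 53.7 FPKM, against 44.4, 39.2 and 42.4 FPKM in wild type (log2 fold change 0.37 ± 0.08 SE, adjusted p = 0.00682, limma). Of all tested genes 21.9% were called in cor27cor28 with the deposited values. Under median-of-ratios scaling 1 of the 7 was higher and 3 lower in cor27cor28, beside 1260 higher and 2125 lower of 17034 genes. With equal totals 2 were higher, beside 4246 of 18047 genes. Between the mutants 3 were called higher in cop1-6, BCM2, CLPS1 and CLPC1, and 1 lower, OVA3, which was not called without cop1-6 replicate 3 (adjusted p = 0.0784) or under either other scaling. With the deposited values 9.19% of all tested genes were called higher and 56.6% lower. The counts of the list were 6 higher and 0 lower with median of ratios and 4 higher and 0 lower with equal totals. Those of all genes were 3300 and 2397 of 17034, then 1903 and 7685 of 18047.

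The trunk after aminolevulinate held 8 analysed genes, of which 7 were tested. In cop1-6 against wild type 3 were called lower and 0 higher, HEMC, HEME2 and HEMF1, with log2 fold changes of −0.24, −0.29 and −0.34. This count is near the 38.6% of all tested genes called lower, and the list's median of −0.24 is near the all-gene median of −0.21. These encode porphobilinogen deaminase, uroporphyrinogen decarboxylase and coproporphyrinogen oxidase, the enzymes that build and trim the tetrapyrrole ring. None of the 3 was called under either other scaling, and HEMC was not called without cop1-6 replicate 3 (adjusted p = 0.0743). In cor27cor28 against wild type 0 of 7 were called with limma, beside 21.9% of all tested genes, with 0 also at an unadjusted p under 0.05. With median-of-ratios scaling 2, HEME1 and HEME2, were called lower, beside 2125 of 17034 genes. Between the mutants 4 of 7 were called lower in cop1-6 with the deposited values, near the 56.6% of all tested genes called lower. With equal totals 2 were lower, beside 7685 of 18047 genes. With median-of-ratios scaling 0 were lower and 3 higher, beside 2397 lower and 3300 higher of 17034 genes.

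In the haem, bilin and sirohaem branch 6 of 8 analysed genes were tested. In cop1-6 against wild type 1 was called lower and 0 higher, beside 38.6% of all tested genes called lower and 10.9% higher. UPM1, a methyltransferase gene of sirohaem synthesis, was called lower in cop1-6 (206.9, 151 and 186 FPKM, against 227, 235 and 243 FPKM in wild type, adjusted p = 0.0129, limma) but under neither other scaling. Under both of those HO2, a haem oxygenase gene, was the gene called, and higher (log2 fold changes 0.44 and 0.39, adjusted p = 0.00269 and 0.0231, limma). Of all tested genes 3825 of 17034 and 3068 of 18047 were higher there. HY1, the haem oxygenase gene of phytochrome chromophore synthesis, and FC1, a ferrochelatase gene, were called in no comparison with the deposited values. In cor27cor28 against wild type 0 of 6 were called with limma, beside 21.9% of all tested genes, when 1 was higher and 1 lower at an unadjusted p under 0.05. With median-of-ratios scaling 1 was lower, and with equal totals 1 was higher, beside 2125 lower of 17034 and 4246 higher of 18047 genes. Between the mutants HY2, the phytochromobilin synthase gene, and SIRB, the ferrochelatase gene of sirohaem synthesis, were called lower in cop1-6 (−0.33 and −0.28, adjusted p = 0.0411 and 0.038, limma). They were 2 of 6 tested genes, beside 56.6% of all tested genes called lower. Neither HY2 nor SIRB was called under the other scalings or without cop1-6 replicate 3 (adjusted p = 0.0622 and 0.0767). With median of ratios HY1 and HO2 were called higher instead, beside 3300 of 17034 genes.

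On the magnesium branch, which leads to chlorophyll, 2 of 11 tested genes were called higher and 3 lower in cop1-6 against wild type. Of all tested genes 10.9% were called higher and 38.6% lower. The branch counts were 6 higher and 1 lower under median-of-ratios scaling, and 5 higher and 2 lower of 12 with equal totals. Those of all genes were 3825 and 3494 of 17034, then 3068 and 4100 of 18047. CHLH, the large subunit of magnesium chelatase, and GUN4, its activator, were called higher here and under both other scalings (log2 fold changes 0.72 and 0.29 with the deposited values). The genes called lower were PORB, CHLM and CHLI2 (−4.12, −0.29 and −0.26). PORB had 36.1, 37.6 and 35.9 FPKM in cop1-6, against 647, 663 and 647 FPKM in wild type. It was lower under both other scalings too, while CHLM and CHLI2 were called under neither. In cor27cor28 6 of 11 were called lower than in wild type, beside 7.29% of all tested genes. Among them were CHLH (−0.37) and CRD1, the cyclase gene (−0.48). On this branch 0 were called higher, also at an unadjusted p under 0.05, while 14.6% of all tested genes were called higher. With median-of-ratios scaling 7 of 11 were lower, and with equal totals 4 of 12, beside 2125 of 17034 and 817 of 18047 of all tested genes. Between the mutants 6 of 11 were called higher in cop1-6 and 2 lower, PORB (−3.77) and CHLD (−0.21). Of all tested genes 9.19% were called higher and 56.6% lower. The branch counts were 9 higher and 1 lower with median of ratios, and 7 higher and 2 lower of 12 with equal totals. Those of all genes were 3300 and 2397 of 17034, then 1903 and 7685 of 18047. CHLH, among the higher genes, had 642, 559 and 562 FPKM in cop1-6, against 276, 284 and 269 FPKM in cor27cor28.

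**Figure D4:**
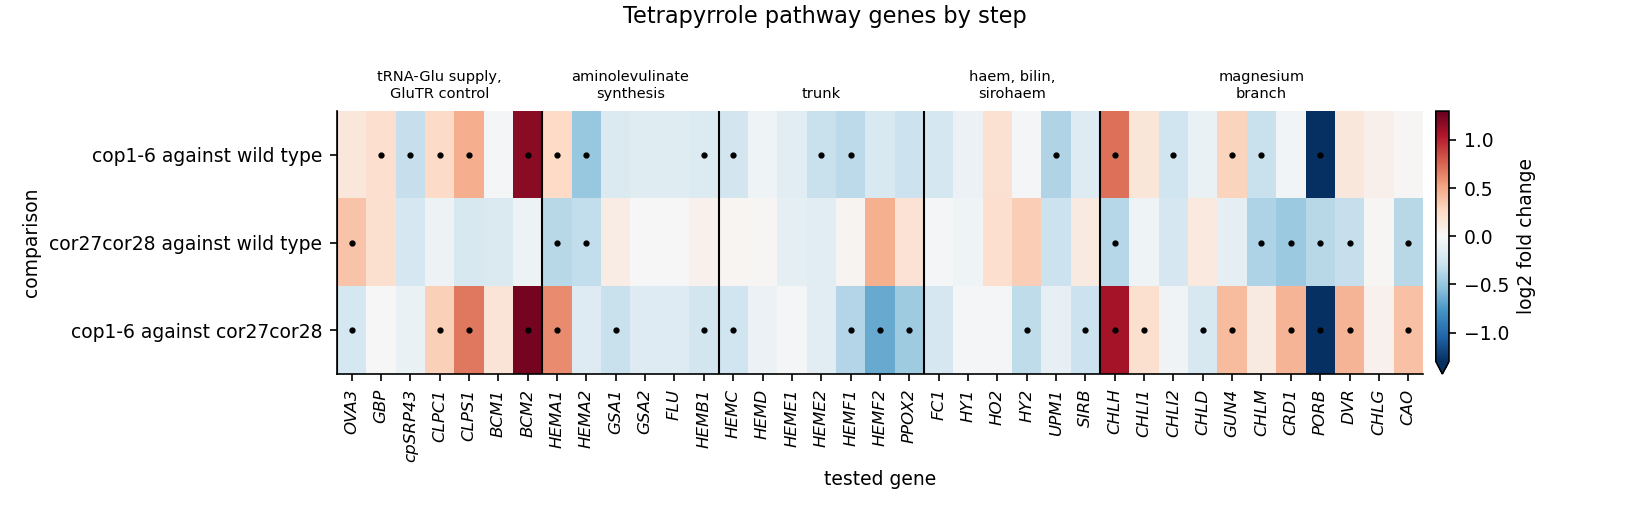
Log2 fold change (colour, log2(FPKM + 1) scale) of the tested tetrapyrrole genes, in columns by pathway step, for the 3 comparisons in rows, with a dot where the gene was called. PORB, at −4.12 and −3.77 in the cop1-6 rows, lies beyond the colour range, HEMA1 and CHLH are red in both cop1-6 rows and blue in the row of cor27cor28 against wild type, and no trunk gene carries a dot in that row.

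Green tissue markers moved with HEMA1 in cor27cor28. All 4 were called lower than in wild type, with log2 fold changes of −0.67 to −0.38, beside 7.29% of all tested genes called lower. The summed level of the 4 was 12573 to 14108 FPKM in cor27cor28, against 18909 to 19676 FPKM in wild type. In cop1-6 the sum was 18182 to 20605 FPKM, which overlapped wild type. There 1 of 4 was called higher, RCA, the Rubisco activase gene (0.83), beside 10.9% of all tested genes called higher. The part of these markers in the HEMA1 result was not tested.

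The genes whose pattern over the 9 libraries was most like that of each member were found by Pearson's r of log2(FPKM + 1) among 4184 genes with a symbol and a mean of at least 10 FPKM. These are descriptions: the 9 points fall into 3 genotypes, and all genes of a library share its scaling. For HEMA1 they were Lhca6 (r = 0.995), FBA1 (0.993) and ATBETAFRUCT4 (0.991), of 128 genes with r above 0.9. For HEMA2 they were DI19 (0.987), UBC28 (0.987) and VTI1B (0.98). For GSA1 they were OEP6 (0.972), SYP111 (0.959) and CP29 (0.959), and for GSA2 HTB1 (0.933), ROP2 (0.929) and EMB2816 (0.928). For FLU they were PP5.2 (0.961), TAF11 (0.929) and RPL34 (0.928), and for HEMB1 RP2 (0.983), PME5 (0.977) and maMYB (0.974). Between 7 genes, for FLU, and 178 genes, for HEMA2, had r above 0.9 with a member.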

How the data were processed

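Total RNA of seedlings was sequenced in 9 libraries. The authors deposited FPKM, 1 value per gene and library, per the file headers. TAIR10, DESeq 1.18.0, Bowtie2, TopHat, Cufflinks, HISAT2 2.2.1.0 and Trimmomatic 0.36 are named without role or order in the submitters' processing notes. The sources used here do not give the tool behind the FPKM or the use of strand. Of 26997 entries, 13 without a gene name, at most 0.00203% of a library's sum, were left out. Depth in reads is unknown, so no counting interval was computed.

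The 17075 genes that reached 1 FPKM in 3 or more libraries were tested in limma 3.58.1 (R 4.3.3) on log2(FPKM + 1), with 3 genotypes as groups and a variance trend. Fold changes on this scale understate those of low genes. Called means a Benjamini-Hochberg adjusted p under 0.05 over all tested genes. The fit was tested on simulated data. Ratios were compared with a two-sided exact permutation test (scipy 1.17.1). Models and sequences are from RefSeq's TAIR10.1, to which all 26984 genes matched by identifier. Named genes are the members, genes of the fixed lists and the 3 most similar genes per member. Members and lists were chosen with earlier results of these data known. PPOX1, FC2 and PORC were not analysed here. Alternatives were pseudocount, filter, scaling, samples, trend, replicate block and leaving out each library. For the gene lists, the scalings and the omission of cop1-6 replicate 3 were chosen after seeing the data. The labels give no batch.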

Additional observations from a re-analysis of the deposited data

How the results depend on the processing

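HEMA1 kept its direction and its call in all 3 comparisons under all 17 alternatives. Of the log2 fold changes of the 6 genes under alternatives, 263 kept direction and side of the threshold, 17 lost the call, 4 gained one and 22 changed sign. Under median-of-ratios scaling 1 gene was called in cop1-6 against wild type, 0 of them lower (all tested genes: 43% called, 3494 of 17034 lower), and GSA1, GSA2, FLU and HEMB1 had log2 fold changes of 0.070, 0.10, 0.10 and 0.079. In cor27cor28 against wild type these 4 had −0.039, −0.13, −0.13 and −0.081. In cop1-6 against cor27cor28 1 gene was called, 0 of them lower (all: 33.4%, 2397 lower), and HEMA2, GSA1, GSA2, FLU and HEMB1 had 0.21, 0.11, 0.23, 0.23 and 0.16. With equal totals 1 gene was called lower in cop1-6 against wild type (all: 39.7% called, 4100 of 18047 lower), where GSA1, GSA2, FLU and HEMB1 had 0.0046, 0.037, 0.035 and 0.013. With equal totals 1 gene was called, and lower, in cor27cor28 against wild type (all: 28.1%, 817 lower), and 1 in cop1-6 against cor27cor28, 0 of them lower (all: 53.1%, 7685 lower). With only the compared genotypes in the fit, and without a variance trend, 1 gene was called lower in cop1-6 against wild type. In the same order 6283 of 16592 and 6564 of 17075 of all tested genes were lower. These scalings set all libraries to a common median ratio or sum by construction, and beyond that the cause was not tested.

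Leaving out each library gave 2 to 4 genes called and 1 to 3 called lower in cop1-6 against wild type, 1 to 2 called and 1 to 2 lower in cor27cor28 against wild type, and 3 to 5 called and 2 to 4 lower in cop1-6 against cor27cor28. The share of all tested genes called ranged over these omissions from 42.6% to 50.4%, from 10.8% to 24.2% and from 54.3% to 67.2% in the same order of comparisons. GSA2 ranged from −0.018 to 0.031 and FLU from −0.045 to 0.077 in cor27cor28 against wild type. The log2 ratio difference of HEMA1 over HEMA2 in cor27cor28 ranged from −0.053 to 0.0096, and that of GSA1 over GSA2 in cop1-6 from −0.074 to 0.026, each against wild type.

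Same-numbered libraries of different genotypes did not deviate together (r of −0.185 to 0.125), so no pairing by number was seen. Deviations within 3 libraries a genotype are too few to exclude one. With a replicate block 1 gene, HEMA2, was called lower in cop1-6 against wild type, as HEMB1 had an adjusted p of 0.072 in limma, and 7921, 2967 and 10691 of all genes were called in the 3 comparisons, against 8448, 3738 and 11235 without the block. The read depth is unknown, which leaves the counting error of low genes such as HEMA3 without an estimate, and 3 libraries a genotype cannot bring an exact permutation p below 0.1.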

Other observations

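HEMA1 and HEMB1 each lie near a haem oxygenase gene of the same strand on chromosome 1 in TAIR10.1. HO4 lies 1355 bases from HEMA1, and HO3, which AT1G69730 overlaps on the other strand, lies 3039 bases from HEMB1. HO4 stayed between 0.0637 and 0.0678 FPKM in cop1-6, 0.064 and 0.247 FPKM in cor27cor28, and 0 and 0.258 FPKM in wild type, and HO3 between 0.0317 and 0.494, 0.0298 and 0.0881, and 0 and 0.306 FPKM in the same genotypes. Both were below the minimum for testing.

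The summed level of 6 seed markers was 11.1 to 25.3 FPKM in cop1-6, 0.423 to 3.46 FPKM in cor27cor28 and 0.338 to 2.06 FPKM in wild type. OLEO1 had 1.58, 5.31 and 1.14 FPKM in cop1-6, against 0.751, 0.265 and 0.0443 FPKM in wild type, and CRU1 had 6.21, 14.02 and 5.75 FPKM in cop1-6, against 1.16, 0.109 and 0.106 FPKM in wild type. Both passed the minimum for testing through their cop1-6 libraries, so no test is given, and the other 4 were below the minimum. Of these markers 0 to 1 were at 0 in cop1-6, 1 to 3 in cor27cor28 and 2 to 3 in wild type, and their part in the results for the 6 genes was not tested.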
